A study of Mus musculus with 8 samples.

Results

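The genes described here are 6 mouse genes through which the liver takes up, stores and burns glucose and fructose: Slc2a2, Gckr, Pklr, Pfkfb1, Khk and Pygl. They were listed by name for what they do, at a time when earlier results of these data were known, and are 6 of the 21887 protein-coding genes in the gene table used. RNA polymerase II (Pol II) was measured over them in liver of wild type C57BL/6 mice aged 3 to 6 months. All animals had food and water freely available under 12 h of light and 12 h of dark. The assay was ChIA-PET, in which Pol II is pulled down from crosslinked chromatin, DNA ends held in one complex are ligated through a linker, and each ligation is read as a paired-end tag (PET) with 2 ends. The antibody was 8WG16, which binds the repeats of the Pol II C-terminal domain. Livers were taken at ZT06, the middle of the day, or ZT18, the middle of the night, and each immunoprecipitation held the combined chromatin of 3 to 7 livers. Experiments 1 and 3 (JM08 and JM12) were crosslinked with 1.5 mM EGS, which links proteins over a longer span, and 1% formaldehyde. Experiment 2 (JM11) had 1% formaldehyde alone. The labels describe 8 libraries, 4 for each time point, but the deposited PETs name the experiment and not the library. Each experiment is therefore 1 pool of day and night libraries, day and night could not be compared, and no value below has a replicate or a test behind it.

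Glucose and fructose enter hepatocytes mainly through GLUT2, a low-affinity carrier made from Slc2a2. Inside the cell the regulatory protein from Gckr restrains the trapping of glucose, ketohexokinase from Khk phosphorylates fructose, and liver pyruvate kinase from Pklr closes glycolysis. The bifunctional enzyme from Pfkfb1 sets the level of a fructose bisphosphate, the signal sugar that switches the liver between burning and making glucose, and glycogen phosphorylase from Pygl frees glucose units from the liver's store.

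The starts of these genes are shown first because Pol II ends gathered there. RefSeq's promoter table for GRCm38.p6 had 10 entries for the 6 genes, each of 300 bases from 250 before to 50 after an annotated start, and 5 of them are printed, 5′ to 3′ in the direction of the gene. They are the start of Khk at chr5:30921309-30921608 on the plus strand, the start of Pygl at chr12:70227634-70227933 on the minus strand, both starts of Pklr at chr3:89135892-89136191 and chr3:89136373-89136672 on the plus strand, and the start of Slc2a2 at chr3:28697653-28697952 on the plus strand. Capitals mark matches on either strand to 8 words searched for: CACGTG (E-box), TATAAA (a core promoter word), CCAAT (bound by NF-Y), GTTAAT (half-site of HNF1, a liver transcription factor), AGGTCA (nuclear receptor half-site), TGTTTAC (forkhead factors), TTATGTAA (D-box of the clock-controlled PAR factors) and GGGCGG (Sp1 family).
Khk: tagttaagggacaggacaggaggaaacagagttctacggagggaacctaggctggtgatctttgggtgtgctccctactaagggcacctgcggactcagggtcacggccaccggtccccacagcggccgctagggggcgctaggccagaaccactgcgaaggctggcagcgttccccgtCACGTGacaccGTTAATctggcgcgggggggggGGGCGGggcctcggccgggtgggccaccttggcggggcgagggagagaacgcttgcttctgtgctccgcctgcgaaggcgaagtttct
Pygl: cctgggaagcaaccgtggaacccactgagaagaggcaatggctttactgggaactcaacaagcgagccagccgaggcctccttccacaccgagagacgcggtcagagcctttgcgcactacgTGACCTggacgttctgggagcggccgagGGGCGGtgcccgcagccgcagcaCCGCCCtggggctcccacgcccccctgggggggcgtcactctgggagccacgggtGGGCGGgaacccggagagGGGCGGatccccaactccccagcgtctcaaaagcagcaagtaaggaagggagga
Pklr start 1: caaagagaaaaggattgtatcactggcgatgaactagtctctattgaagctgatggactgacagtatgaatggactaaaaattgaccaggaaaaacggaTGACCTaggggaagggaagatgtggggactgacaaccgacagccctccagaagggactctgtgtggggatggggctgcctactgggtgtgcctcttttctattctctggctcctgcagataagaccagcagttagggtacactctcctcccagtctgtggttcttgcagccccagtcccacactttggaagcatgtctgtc
Pklr start 2: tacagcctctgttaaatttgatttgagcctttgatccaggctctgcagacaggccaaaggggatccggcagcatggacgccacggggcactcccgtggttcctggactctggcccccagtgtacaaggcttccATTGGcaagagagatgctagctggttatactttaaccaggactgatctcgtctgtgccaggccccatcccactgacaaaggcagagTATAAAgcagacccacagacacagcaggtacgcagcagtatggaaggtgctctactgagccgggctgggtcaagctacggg
Slc2a2: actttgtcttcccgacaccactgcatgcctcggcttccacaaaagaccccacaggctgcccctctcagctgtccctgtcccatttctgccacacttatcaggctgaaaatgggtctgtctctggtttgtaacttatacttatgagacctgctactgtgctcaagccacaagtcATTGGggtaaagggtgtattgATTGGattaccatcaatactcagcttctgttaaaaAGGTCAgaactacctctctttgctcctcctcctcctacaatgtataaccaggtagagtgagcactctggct

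Khk was the member with an E-box, 71 bases before its start, and 7.15% of the 32851 RefSeq mouse promoters of the same length hold that word. A GTTAAT lay 60 bases before the start, and Gckr had one at nearly the same place, 59 bases before its start; 7.1% of promoters hold it. Pygl carried 4 copies of GGGCGG, a word in 35.7% of promoters, and its entry and that of Khk were rich in G and C, at 67% and 65.7% against a median of 52.7%. The second start of Pklr, which lies 481 bases past the first and opens the liver form of the enzyme, had a TATAAA 31 bases before it (13.6% of promoters). The first start, which opens the red-cell form, had none. Slc2a2 held CCAAT at 77 and 56 bases before its start and AGGTCA at 21 before it, words found in 37.4% and 16.3% of promoters. TGTTTAC (3.65% of promoters) and TTATGTAA (0.938%) were in none of the 10 entries. A match is a run of letters, not a measured binding site.

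The experiments held 474466, 1438852 and 837971 nuclear PETs. Over the 6 genes and 2.5 kb on either side lay 969 of their 5502578 ends, from 833 PETs. Ends per base over a gene were divided by the mean of the nuclear genome in the same experiment, giving a relative density of 1 for a gene at the genome's average. Exact 95% intervals are given in brackets. They cover counting error only and say nothing of the spread between libraries. Those of stretches along a gene count ends, and are too narrow where both ends of a PET fall in the stretch. A gene was called enriched at a relative density of 2 or more, which 27.7% of protein-coding genes reached in experiment 1, 6.52% in experiment 2, 25.4% in experiment 3 and 5.32% in every experiment.

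Of the 6 genes, 5 were enriched in experiment 1, 2 in experiment 2 and 4 in experiment 3, and Pklr and Khk were enriched in every experiment. Over the members the median relative density was 5.81, 1.66 and 3.11 in experiments 1, 2 and 3, beside medians of 1.22, 1.2 and 1.42 over all protein-coding genes. Pfkfb1 was below 2 throughout. Gckr passed 2 in experiment 1 and not in the others.

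**Figure D1:**
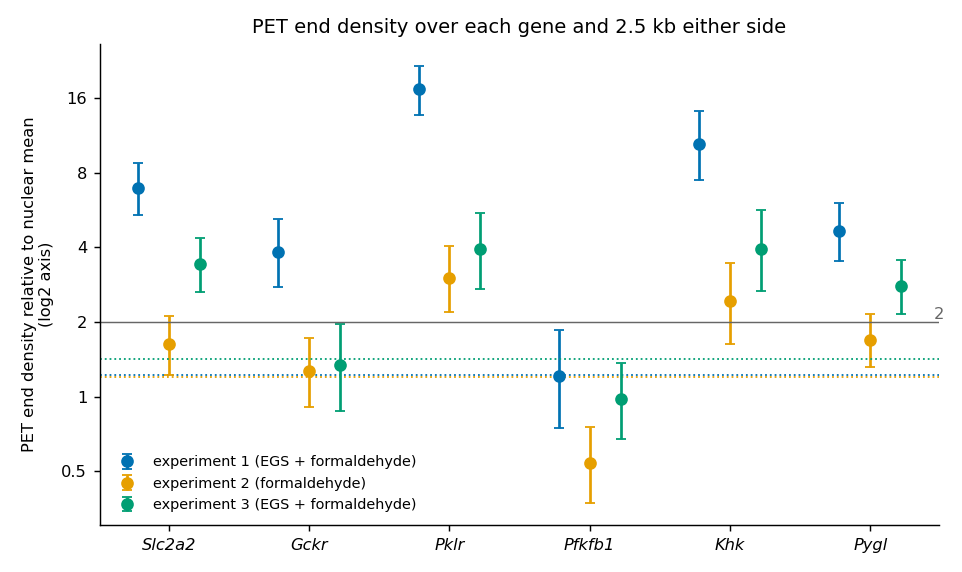
Relative density of PET ends over each gene and 2.5 kb either side (vertical axis, log2 scale, 1 = mean of the nuclear genome) for the 6 genes in the 3 experiments. Points are single pools, bars are exact 95% counting intervals, dotted lines are the medians of all protein-coding genes and the grey line is 2. Pklr and Khk lie above 2 in every experiment, Pfkfb1 lies below 2 in all of them, and every gene is highest in experiment 1.

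Slc2a2 (chr3:28697903-28728361, plus strand, 30.5 kb), the carrier, had 86, 61 and 75 ends in experiments 1, 2 and 3, the order kept for sets of 3 values from here on. Its relative density was 6.96 (5.42 to 8.79), 1.63 (1.23 to 2.12) and 3.44 (2.65 to 4.38). These placed it at percentiles 94.7, 85.5 and 93.1 of protein-coding genes. No other protein-coding gene overlapped its window. Overlap with genes of other kinds was not looked at.

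Gckr (chr5:31297266-31327302, plus strand, 30.0 kb), the regulatory protein of glucose trapping, had 47, 47 and 29 ends. Its relative density was 3.85 (2.76 to 5.22), 1.27 (0.911 to 1.72) and 1.34 (0.878 to 1.97). The last of these is near the 1.42 of the median gene. Gckr stood at percentiles 87.6, 58.2 and 45.7 of protein-coding genes. Many of its ends were not in the gene itself: the 2.5 kb before it had 20.7 (12.2 to 32.6), 6.81 (4.04 to 10.8) and 1.95 (0.402 to 5.7), while the gene without flanks had 2.58, 0.724 and 1.3. Fndc4 starts in that flank and runs the other way. The 1170 bases of the flank inside Fndc4 held 10 of the flank's 18 ends, 10 of 18 and 2 of 3. Neither these nor the ends between the starts can be assigned to either gene.

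Pklr (chr3:89136122-89146815, plus strand, 10.7 kb), the liver pyruvate kinase, had the highest value of the 6 in experiments 1 and 2 when the 2.5 kb flanks were counted; over the genes alone Khk was higher in every experiment. Its 95, 50 and 38 ends gave a relative density of 17.4 (13.7 to 21.6), 3.01 (2.19 to 4.05) and 3.93 (2.72 to 5.5). It stood at percentiles 99.1, 98.2 and 95.2. A large part of that came from behind the gene. The 2.5 kb after its end, which lie wholly inside Hcn3, a channel gene, held 55 of the 95 ends, 14 of the 50 and 16 of the 38. Their relative density was 63.1 (47.5 to 82.1), 5.3 (2.9 to 8.89) and 10.4 (5.94 to 16.9). Over the gene alone Pklr had 9.66 (6.76 to 13.4), 2.65 (1.79 to 3.79) and 2.89 (1.74 to 4.51), still above 2 in every experiment. Whether the ends behind Pklr belong to its transcription or to Hcn3 cannot be told apart from their positions.

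Pfkfb1 (chrX:150587445-150643878, plus strand, 56.4 kb) was the lowest of the 6 in every experiment. It had 26, 35 and 37 ends and a relative density of 1.21 (0.752 to 1.86), 0.539 (0.373 to 0.753) and 0.978 (0.673 to 1.37). Among all protein-coding genes these were percentiles 49.9, 12.9 and 26. The X chromosome as a whole was low, at 0.432, 0.395 and 0.358 of the nuclear mean. Taken against the X mean, Pfkfb1 had 2.81, 1.36 and 2.73, and among genes of the X it stood at percentiles 84.7, 55.5 and 83.2. A call made against the chromosome's own mean thus counts Pfkfb1 as enriched in experiments 1 and 3, where the call against the genome does not. The sex of the animals is not stated in the labels used, and its part in these values was not tested.

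Khk (chr5:30921436-30931248, plus strand, 9.81 kb), ketohexokinase, had 54, 38 and 36 ends. Its relative density was 10.5 (7.47 to 14.2), 2.43 (1.64 to 3.46) and 3.95 (2.66 to 5.64), at percentiles 97.4, 96.7 and 95.2. Emilin1 ends just before it and Cgref1 lies behind it, and the stretch shared with Emilin1 held 7, 0 and 4 of these ends and that shared with Cgref1 5, 0 and 0. Without flanks Khk had 10.2, 3.28 and 4.97.

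Pygl (chr12:70190815-70227683, minus strand, 36.9 kb), liver glycogen phosphorylase, had the most even counts, with 68, 75 and 72 ends. These gave 4.66 (3.53 to 6.04), 1.69 (1.32 to 2.15) and 2.79 (2.16 to 3.56). Its percentiles were 90.4, 87.7 and 88.4, a span close to that of Khk. Abhd12b, whose end overlaps its window, held 0, 1 and 0 of these ends in the shared 1782 bases.

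The order in experiment 1 was Pklr, Khk, Slc2a2, Pygl, Gckr and Pfkfb1. Neighbours in that order differed beyond counting error for Pklr over Khk (1.66-fold, 1.12 to 2.49), Slc2a2 over Pygl (1.49-fold, 1.04 to 2.16) and Gckr over Pfkfb1 (3.17-fold, 1.83 to 5.65). Over the genes alone, an alternative added after the data were seen, the first of these turned, with Pklr at 0.944 of Khk (0.542 to 1.65), and Slc2a2 over Pygl took in 1 (1.48-fold, 0.996 to 2.2). With flanks counted, Khk and Slc2a2, and Pygl and Gckr, had ratios whose intervals took in 1. Over the genes alone Pygl exceeded Gckr in every experiment. The ratio was 1.78 (1.08 to 3.01), 2.3 (1.4 to 3.9) and 2.17 (1.31 to 3.73) in experiments 1, 2 and 3. In experiment 2 Gckr over Pfkfb1 (2.35-fold, 1.46 to 3.83) was the only pair of neighbours whose interval lay above 1, and over the genes alone it took in 1 (1.44-fold, 0.796 to 2.58). In experiment 3 it was Pygl over Gckr (2.08-fold, 1.3 to 3.41), and Khk and Pklr were level at 3.95 and 3.93. The members spanned a 14.3-fold range in experiment 1, a 5.59-fold range in experiment 2 and a 4.04-fold range in experiment 3.

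Densities over the 6 genes were higher in experiment 1 than in experiment 2, by more than the genome's typical gene. The ratio was 5.76 (3.94 to 8.53) for Pklr, 4.31 (2.62 to 7.16) for Khk, 4.28 (2.96 to 6.2) for Slc2a2, 3.03 (1.92 to 4.79) for Gckr, 2.75 (1.9 to 3.97) for Pygl and 2.25 (1.24 to 3.99) for Pfkfb1. The median ratio of all protein-coding genes was 1.16. The upper tail of all genes was also higher in experiments 1 and 3 than in experiment 2. Its 90th percentile was 4.51, 1.78 and 2.96 in experiments 1, 2 and 3. The 99th was 17, 3.66 and 6.79. How far the members' ratios reflect that wider spread was not tested. Between experiments 3 and 2 the ratio was 2.11 (1.45 to 3.08) for Slc2a2, 1.82 (1.09 to 3.02) for Pfkfb1 and 1.65 (1.15 to 2.35) for Pygl, against a median of 1.25. Only the interval of Slc2a2 lay above that median, and those of Pfkfb1 and Pygl took it in. The ratios of Khk (1.63, 0.947 to 2.79), Pklr (1.3, 0.809 to 2.09) and Gckr (1.06, 0.622 to 1.77) had intervals that took in both 1 and 1.25. Both pools with EGS exceeded the pool without it for every member, but 2 pools against 1 carry no test, and crosslinker and experiment cannot be told apart.

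The signal depended on the kind of PET. PETs whose ends lie on one chromosome and at most 8 kb apart can come from a single fragment, and they made up 12.5% (8.81 to 17) of the members' PETs in experiment 2, where 5.12% of PETs touching protein-coding genes were of that kind. In experiment 1 the members' share was 23.4% (18.8 to 28.5) beside 20.4%, and in experiment 3 it was 13% (9.15 to 17.8) beside 11.9%. Counted from these near PETs alone, the members' median relative density was 9.09, 5.17 and 4.63 in experiments 1, 2 and 3, with 1.21, 1.14 and 1.38 for all protein-coding genes. Khk reached 25.8, 16.4 and 8.91 and Pklr 27.6, 11.6 and 5.61 in them. In experiment 2 Slc2a2 had 5.14, Gckr 5.2 and Pygl 5.08, from only 6, 6 and 7 near PETs. Pklr and Khk rested on 6 and 8 there, and Pfkfb1 had 0.494 from a single near PET. Counts this low do not fix a gene's value closely.
PETs between chromosomes gave lower values. Their median over the members was 4.88, 1.4 and 2.7, beside 1.19, 1.16 and 1.39 over all genes, and Khk in experiment 2 had 1.51 from 21 such PETs. In experiment 2, where 88.7% of PETs join chromosomes, the near PETs gave all members but Pfkfb1 a value above 5. Each of these values came from 6 to 8 PETs. The members' near median was still below that of experiment 1.

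Along the genes, ends were gathered at the start. Within 1 kb of the annotated start, the 6 genes together had 90, 72 and 52 ends. The density there was 6.71 times that of the rest of the gene body in experiment 1 (5.16 to 8.67), and the next experiments had ratios of 5.64 (4.23 to 7.45) and 3.7 (2.67 to 5.05). Over 14682 protein-coding genes longer than 3 kb the same ratio was 6.74, 2.08 and 3.52. The members together were thus close to other genes in experiments 1 and 3, and above their ratio in experiment 2. Gene by gene, the interval took in 1 for Pfkfb1 in experiments 2 (0, 0 to 3.62) and 3 (1.68, 0.195 to 6.56). In experiment 3 it also did so for Slc2a2 (0.712, 0.143 to 2.18) and Pklr (2.24, 0.697 to 6.3).

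Pygl and Khk had their densest 1 kb right after the start in every experiment. In Pygl this first kb held 16, 11 and 10 ends, a relative density of 45.9 (26.2 to 74.5), 10.4 (5.19 to 18.6) and 16.2 (7.79 to 29.9). In Khk it held 12, 13 and 15 ends, or 34.4 (17.8 to 60.1), 12.3 (6.55 to 21) and 24.4 (13.6 to 40.2). These are the GC-rich starts printed above. With each gene cut into 5 equal parts, the first part of Pygl had 15.2, 3.08 and 5.73 and the last 0.389, 1.03 and 1.54, and the 2.5 kb behind the gene held 1 end in all. Over Khk the first part had 17.5, 8.2 and 12.4 and the last 4.38, 1.45 and 2.48. The last part held only 3 ends in each experiment. Its intervals (0.904 to 12.8, 0.298 to 4.22 and 0.512 to 7.25) took in the value of the median gene.

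Pklr had 8, 12 and 3 ends within 0.5 kb of its first annotated start and 13, 17 and 6 within 0.5 kb of the second, the liver start with the TATAAA. The windows overlap, since the starts are 481 bases apart, and the ends cannot be divided between the starts. The first part of 5 had 25.5 (15.3 to 39.8), 7.52 (4.38 to 12) and 4.56 (1.67 to 9.92), and the next part had 4.02, 0.442 and 2.28. The high stretch behind the gene described above makes Pklr the only member whose downstream flank was denser than its first part of 5 in experiments 1 and 3.

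Slc2a2 had a second dense stretch inside the gene in experiments 1 and 2. From 23 to 25 kb after the start lay 16, 9 and 7 ends, a relative density of 22.9 (13.1 to 37.3), 4.26 (1.95 to 8.08) and 5.68 (2.29 to 11.7), where the gene as a whole, without flanks, had 6.78, 1.58 and 3.41. The interval of experiment 3 took in the value of the whole gene. From 24 to 25 kb lay 14 of the 16 ends of experiment 1 but 1 of the 7 of experiment 3. This window and the others given by their kb limits from here on were picked after the profiles were seen. The 16 ends of experiment 1 came from 15 PETs at 13 distinct positions, of which 12 PETs joined different chromosomes. Around the start itself, 1 kb to either side, Slc2a2 had 24.4 (14.2 to 39) and 4.73 (2.27 to 8.69) in experiments 1 and 2 but 2.44 (0.502 to 7.12), from 3 ends, in experiment 3. Just outside that window, experiment 3 had 5 ends from 2 to 1 kb before the start and 5 from 2 to 3 kb after it. It also had 10 ends from 7 to 9 kb, where experiments 1 and 2 had 3 and 1.

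Gckr had no end at all from 18 to 24 kb in any experiment, which allows a relative density of up to 0.304 over the 3 pools together. The 80 kb from 20 to 100 kb behind Gckr were nearly as empty, at 0.143, 0.142 and 0.142, from 4, 12 and 7 ends, while the same span before the gene had 2.51, 1.56 and 2.4. Whether tags can be placed in these stretches was not tested. At the start, 1 kb to either side, Gckr had 21.5 (12 to 35.5), 4.25 (1.95 to 8.08) and 4.06 (1.32 to 9.47).

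Pfkfb1 has 4 annotated starts, the others lying 798, 2471 and 6983 bases past the first. In experiment 1, 6 ends lay within 0.5 kb of the second start and 5 within 0.5 kb of the fourth, with none at the first. Experiments 2 and 3 together had at most 2 ends at any of the 4. The first 8 kb, which span all of them, had 5.02 (2.74 to 8.42), 0.591 (0.192 to 1.38) and 1.83 (0.836 to 3.47), and the rest of the gene 0.533 (0.244 to 1.01), 0.488 (0.316 to 0.721) and 0.805 (0.516 to 1.2). The gene-wide value averages these over 56.4 kb, and the surroundings 20 to 100 kb away on either side had 0.296 to 0.43.

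**Figure D2:**
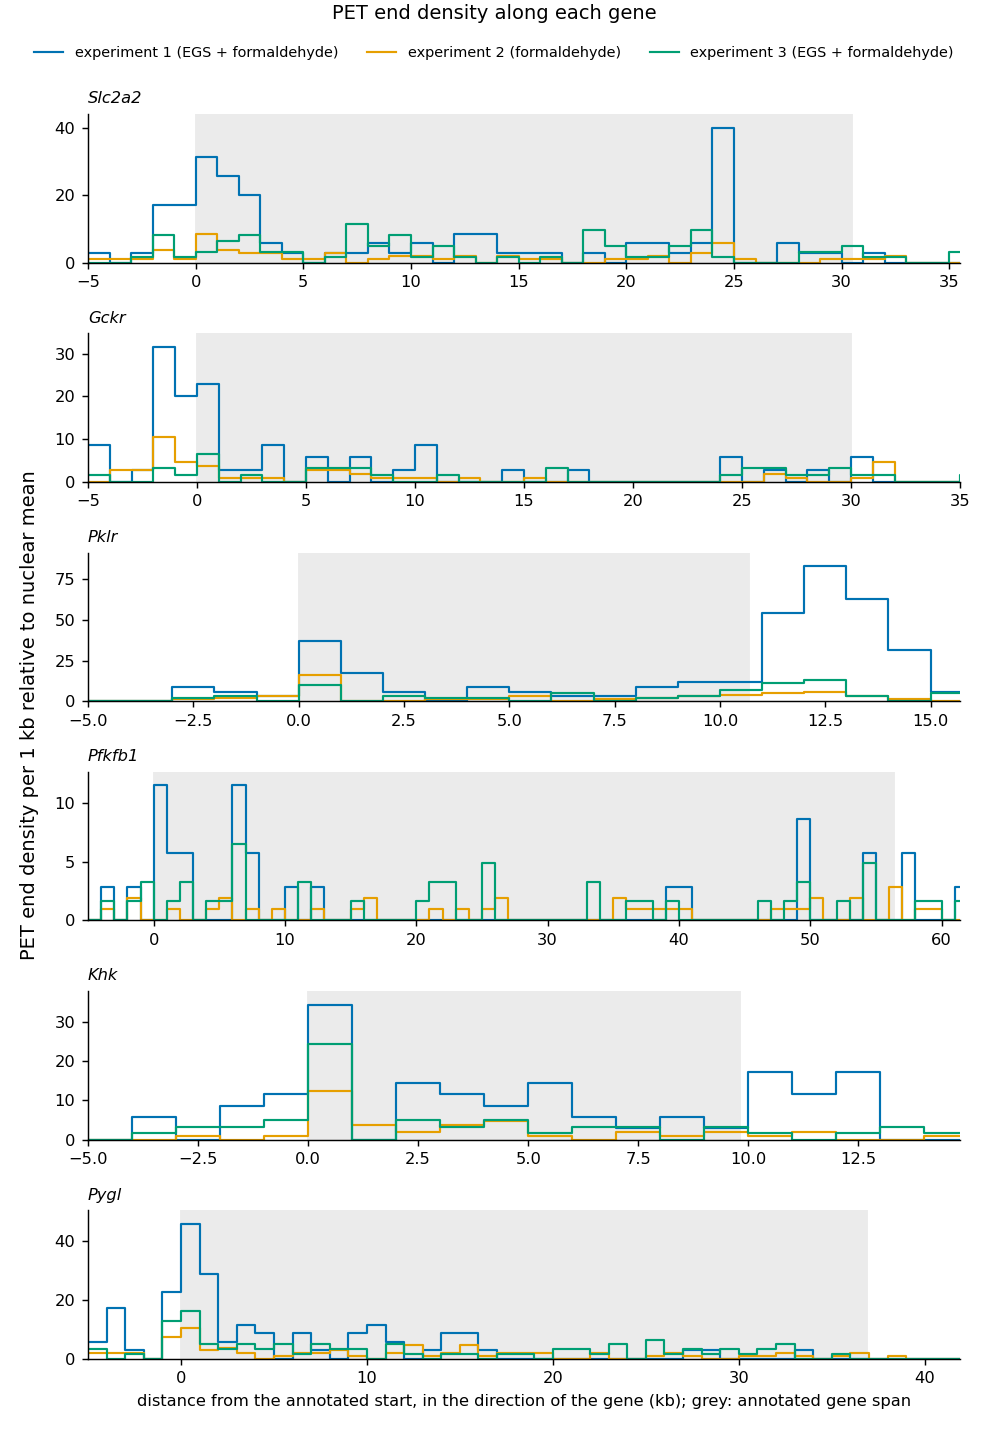
Relative density of PET ends per 1 kb (vertical axes, 1 = mean of the nuclear genome, linear and different for each gene) against distance from the annotated start in kb, in the direction of the gene, with 5 kb on either side. Coloured lines are the 3 experiments and grey marks the annotated gene. Pygl and Khk peak in the first kb in every experiment, and Slc2a2 has a further peak between 23 and 25 kb in experiments 1 and 2. Pklr has its highest values behind the gene in experiments 1 and 3 and in the first kb in experiment 2, and Gckr has none from 18 to 24 kb.

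Contacts of the genes with other sites were few. Of the 833 PETs, 649 joined a member to another chromosome, 139 were near PETs and 45 joined sites on one chromosome more than 8 kb apart. Of those 45, only 7 had a far end within 1 Mb: 1 in experiment 1, 0 in experiment 2 and 6 in experiment 3. They belonged to Khk (3), Slc2a2 (3) and Gckr (1), and Pklr, Pygl and Pfkfb1 had none. Of all protein-coding genes, 24.5% had such a contact over the experiments together. In experiment 3 the share was 16.5%, and 3 of the 6 members had any. In experiment 3 that is 20.9 per 1000 ends over the members (7.67 to 45.5), where all protein-coding genes had 4.72. In experiment 1 it was 2.66 (0.0673 to 14.8) beside 2.91, and the 0 of experiment 2 allows up to 12.1 beside 1.12. Each contact is a single PET, and without experiment 3 only 1 is left.

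The 3 contacts of Khk were all in experiment 3. One ran from 0.727 kb inside the gene to a point 13.6 kb before its start, beside Ost4, a subunit gene of the oligosaccharyltransferase. Another ran from the start itself to a point inside Cgref1, 21.7 kb from the start. The third joined the gene's end to a point 110.0 kb from the start near Slc5a6, a vitamin transporter gene. The first and the second of these thus had their Khk end in the dense first kb or at its edge.
Slc2a2 had 1 contact in experiment 1, from 24 kb after the start to 16.2 kb before it, and 1 in experiment 3 from 23.9 kb to a point 39 kb from the start, behind the gene. Their ends in Slc2a2 lie 110 bases apart, in the 23 to 25 kb stretch described above, and they come from different experiments. The third, in experiment 3, joined 4.76 kb to 12.8 kb within the gene, just past the 8 kb limit. The contact of Gckr in experiment 3 reached 196 kb to Trim54, a muscle ring-finger gene.

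**Figure D3:**
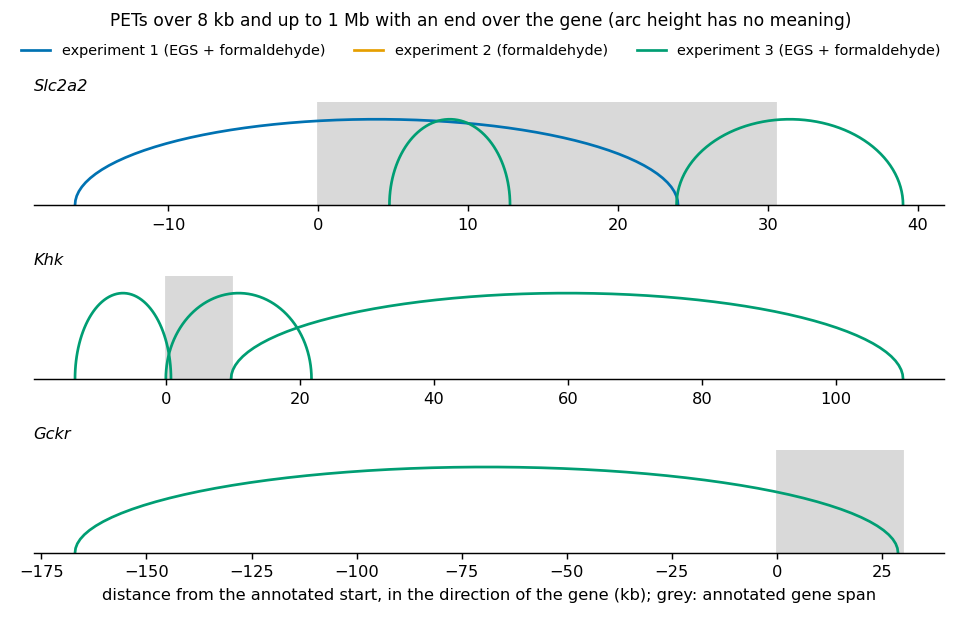
Arcs join the ends of each PET over 8 kb and up to 1 Mb long that touches Slc2a2, Khk or Gckr, by distance from the annotated start in kb (horizontal axes, different for each gene), coloured by experiment; height has no meaning and grey is the gene. There are 3 arcs at Slc2a2, 3 at Khk and 1 at Gckr, with 6 of the 7 from experiment 3, and 2 arcs of Slc2a2 share a foot near 24 kb.

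No PET joined 2 of the 6 genes, including Khk and Gckr, which lie 366 kb apart on chromosome 5. Partners on other chromosomes lay over protein-coding genes and their flanks in 51.8% (45 to 58.5), 51.5% (44.8 to 58.2) and 50.5% (43.4 to 57.6) of the members' PETs. All ends of PETs between chromosomes did so in 51.7%, 47.8% and 53.1%, and each of these lies within the members' interval.

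The liver genes were then set beside relatives that serve other tissues. Pklr was denser than Pkm, the pyruvate kinase of muscle and most other tissues, by 12.9-fold (6.86 to 27), 2.16-fold (1.38 to 3.4) and 3.37-fold (1.85 to 6.33). Over the genes alone, without the flank of Pklr inside Hcn3, the ratios were 8.53 (3.82 to 21.5), 2.21 (1.26 to 3.86) and 2.38 (1.13 to 5.08). With flanks Pkm itself had 1.34, 1.4 and 1.17. Slc2a2 exceeded Slc2a3, the neuronal carrier GLUT3, by 8.77-fold (5.32 to 15), 1.49-fold (1.04 to 2.1) and 3.24-fold (2.19 to 4.81), though over the genes alone the interval of experiment 2 took in 1 (1.4-fold, 0.96 to 2.03).
Against Slc2a1, the widespread carrier GLUT1, Slc2a2 was 3.26-fold denser in experiment 1 (1.98 to 5.59), with intervals across 1 in experiments 2 (0.858 to 2.03) and 3 (0.924 to 2.03). Against Slc2a4, the insulin-regulated carrier of muscle and fat, which had 1, 10 and 9 ends, the ratio was 26.5 (4.61 to 1062), 1.88 (0.949 to 4.14) and 2.57 (1.23 to 6.2). Over the genes alone the last took in 1 (1.78, 0.769 to 5.06).

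Pygl and Pygm, the muscle phosphorylase, had ratios whose intervals took in 1 in every experiment when flanks were counted, at 1.55-fold (0.876 to 2.89), 1.55-fold (0.947 to 2.64) and 1.72-fold (0.999 to 3.14). Pygm stood at 3.01, 1.09 and 1.62. Over the genes alone Pygm had 2.04, 0.74 and 0.693, and Pygl exceeded it by 2.25-fold (1.13 to 4.98), 2.25-fold (1.17 to 4.75) and 4.07-fold (1.65 to 13). Pygl exceeded Pygb, the brain form, by 4.06-fold (2.33 to 7.44) in experiment 1 and 1.91-fold (1.28 to 2.88) in experiment 3, and in experiment 2 the interval took in 1 (1.16-fold, 0.824 to 1.64). Pfkfb1, the liver and muscle form of its family, was below Pfkfb2, known as the heart form, in every experiment, at 0.504 (0.274 to 0.909), 0.353 (0.227 to 0.54) and 0.446 (0.28 to 0.702) of it. It was also below Pfkfb3 in experiments 2 (0.51, 0.334 to 0.762) and 3 (0.544, 0.353 to 0.821), and below Pfkfb4 in experiment 2 (0.429, 0.274 to 0.66). These relatives lie on autosomes, and the X chromosome was low as a whole, as given above; the part of that in these ratios was not tested.

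**Figure D4:**
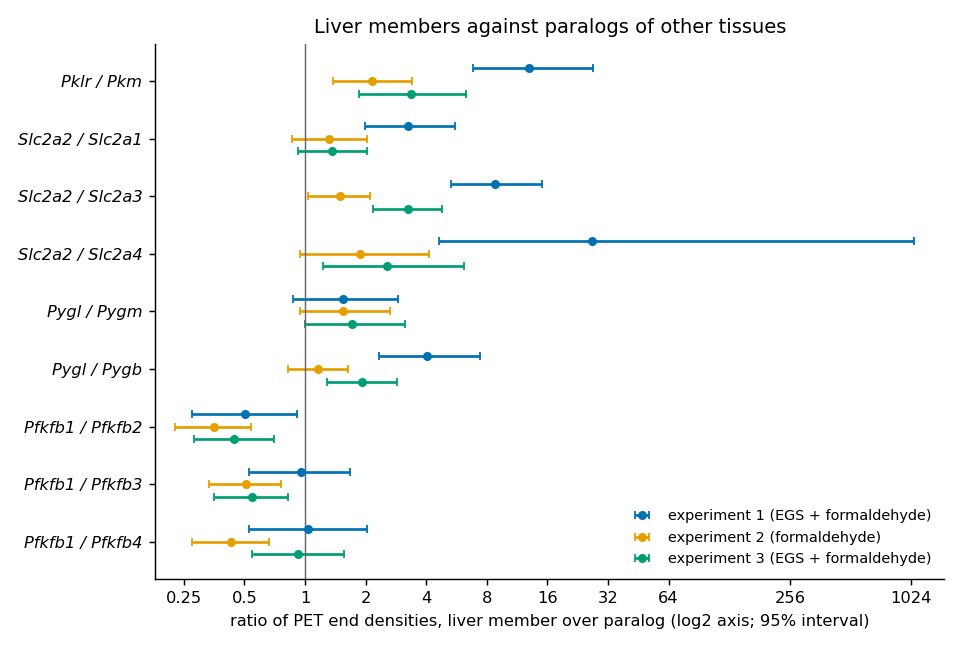
Ratio of the relative density of a liver gene to that of a relative (horizontal axis, log2 scale) in the 3 experiments, with exact 95% counting intervals. With the flanks counted, Pklr over Pkm and Slc2a2 over Slc2a3 lie above 1 in every experiment, Pygl over Pygm takes in 1 in all of them, and Pfkfb1 over Pfkfb2 lies below 1 in all of them.

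A partner in the same pathway was compared too. Tkfc, the triokinase that acts further along fructose use than Khk, had 10.7, 2.43 and 4.44. The ratio of Khk to it was 0.98 (0.637 to 1.5), 0.998 (0.596 to 1.66) and 0.889 (0.54 to 1.45), with intervals that took in 1 in every experiment.

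Other genes of these pathways were counted in lists, in which highest and lowest refer to the median of a gene's 3 values. Their values include the 2.5 kb flanks, and ends shared with neighbouring genes were not set apart. Of 6 further genes of fructose and polyol use, 5, 3 and 4 were enriched in experiments 1, 2 and 3 and 3 in every experiment, with medians of 10.5, 1.8 and 4.07. Sord, which makes fructose from sorbitol, had 10.3, 1.17 and 4.58, and the lowest were Slc2a5, the intestinal fructose carrier GLUT5 (1.73, 0.729 and 1.58), and Aldh1b1 (2.44, 1.07 and 1.99). Of 10 genes of glucose entry and lower glycolysis, 9, 3 and 8 were enriched and 3 in every experiment; Tpi1 (14.1, 2.87 and 7.2) was among the highest, and Pgk1 (1.99, 0.876 and 1.43) and Gpi1 (3.12, 1.45 and 1.91) the lowest.
The glycogen list had 4 of 15 genes enriched in every experiment and 8, 4 and 7 in each. By that median its highest were Ppp1r3b (31.2, 5.26 and 13.2) and Ppp1r3c (27.9, 4.12 and 6.91), which bring a phosphatase to glycogen. In single experiments the list's highest values were 41.6, 6.17 and 13.2, the first and the second of another gene. The lowest were Pgm2 (0.638, 1.03 and 1.29) and the X-linked kinase subunit gene Phka2 (0.844, 0.603 and 0.573). Of 10 regulators of these pathways, 9, 3 and 8 were enriched and 3 in every experiment. Foxa2 (28.7, 4.79 and 6.43) and Usf2 (20.6, 2.44 and 6.42), both transcription factors, led it, and Insr, the insulin receptor gene (1.24, 0.92 and 1.71), and Ppp2r5d (2.76, 1.64 and 1.92) closed it. Of 16 forms used mainly in other tissues, 5, 1 and 4 were enriched, and Aldoa (8.53, 2.55 and 4.68) was the 1 enriched in every experiment; medians were 1.31, 1.24 and 1.54, close to those of all genes. By the median of 3 values Aldoc (2.66, 1.07 and 3.51) came next, and Slc2a3 and Slc2a4 were the lowest; the order within single experiments differed.

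The tissue label was checked on marker genes. Of 8 hepatocyte markers, 6 were enriched in every experiment, with list medians of 55, 6.08 and 10.8, led by Apoa1 and Alb (105, 9.26 and 15.8). Serpina1c, of a family of near-identical copies, was the lowest of them (6.68, 0.504 and 1.62). List medians were at most 1.84 for cholangiocytes, 1.48 for Kupffer cells, 1.74 for sinusoidal endothelium, 1.38 for stellate cells, 1.4 for lymphocytes, 1.28 for pancreatic islets and 1.47 for kidney, and of all these markers only Sox9 (5.71, 2.15 and 4.77) was enriched in every experiment. Each marker had at least 1 end in each experiment. In whole liver, fewer cells of a type and less Pol II per cell cannot be told apart.

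Genes with the most similar densities were found by the largest log2 difference from a member over the 3 experiments, among 8206 genes with at least 20 ends in each. They were Parp16 (0.01) and Cyb5r3 (0.07) for Slc2a2, Cyp2j5 (0.11) and Gtf3c4 (0.14) for Gckr, Eif5a (0.12) and Tmem205 (0.22) for Pklr, and Acsl4 (0.09) for Pfkfb1. For Khk they were Rnd1 (0.07) and Slc38a4 (0.08), and for Pygl Stard4 (0.01) and Txndc15 (0.05). How common a profile is differed: 136 genes lay within 0.25 of Pygl and 93 of Slc2a2 but 7 of Pklr and 7 of Pfkfb1. With 3 points each, such likeness is only a description of level.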

How the data were processed

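The authors deposited 1 table with a line for each PET, giving the experiment, the linker letters of both reads, the chromosome and position of both ends and a distance. Bowtie2 and the mouse build mm10 are named in the submitters' processing notes, and no source used here gives the handling of duplicates. PETs with a mitochondrial end (2265) were set aside. Gene spans and promoters came from RefSeq on GRCm38.p6, to which mm10 corresponds; a shift of the positions by 100000 bases lowered the ends within 1 kb of gene boundaries to 0.289, 0.584 and 0.443 of their number in the 3 experiments. The table names no library, so the deposited positions were counted by experiment with numpy 2.4.6, pandas 2.3.3 and scipy 1.17.1.

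The reference was the mean of all nuclear ends. Intervals over a gene are exact Poisson intervals of its number of PETs, those of stretches along a gene are of ends, and those of ratios are exact conditional intervals. The counting was tested on simulated data. Named genes are the members, the 2 highest and 2 lowest of each list, relatives set beside a member, genes overlapping a window, holding or nearest to a far end, or most alike in density. The members and lists were chosen with earlier results of these data known. Some genes that this rule names are not reported here.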

Additional observations from a re-analysis of the deposited data

How the results depend on the processing

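No paired analysis was possible because the deposited PETs carry no library or replicate number. For each median of the members, a range was made by averaging the counting limits of the 2 middle members. It is not an interval of the median itself. Of 30 recomputed medians, 5 left that range. Near PETs alone gave 9.09, 5.17 and 4.63 in experiments 1, 2 and 3, and linker A alone gave 4.33 in experiment 1 and 2.28 in experiment 2. The number of enriched members in experiment 2, reported as 2, and the number in every experiment, also 2, moved together: each was 1 with flanks of 5 kb, with PETs between chromosomes alone or with a limit of 3, and 4 with linker A alone or with a limit of 1.5. Near PETs alone gave 5 in experiment 2 and 4 in every experiment, and 4 were enriched in both others without experiment 2. The 7 contacts became 4 over 20 kb and 1 without experiment 3. The start-to-body ratio was 7.9 in experiment 2 with windows of 0.5 kb and 2.58 in experiment 3 with windows of 2 kb. Over the genes alone, chosen after the data were seen, Pklr went from 1.66 to 0.944 of Khk in experiment 1. The causes were not tested. No alternative took an enriched member below 1. Of 180 values of single members, 29 moved beyond their interval. Counting limits all of these: a member had 26 to 95 ends in an experiment, and contacts rest on single PETs. Collapsing near-duplicates within 10 bp, which removed 9389 PETs in experiment 1, moved none of the medians beyond the range described. The counts of enriched members and of contacts stayed the same. The spread between animals and between libraries is unknown.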

Other observations

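PETs of each experiment carry one of 2 linker sequences, here linker A (194272, 329515 and 398727 nuclear PETs in experiments 1, 2 and 3) and linker B (280194, 1109337 and 439244). No source used here says what the linkers stand for, so they are no groups and the values are given as they are. In experiment 1, Khk had 8 ends with linker A, a relative density of 3.78 (1.39 to 8.24), and 46 with linker B, 15.1 (10.4 to 21.1). The other 5 members had overlapping intervals with both linkers in that experiment, such as 4.85 (3.08 to 7.28) and 4.52 (3.13 to 6.32) for Pygl, and the median of all protein-coding genes was 1.19 and 1.2. In experiment 2, Pfkfb1 had 1 end with linker A, 0.0672 (0.0017 to 0.375), and 34 with linker B, 0.679 (0.467 to 0.954). In experiments 1 and 3 Pfkfb1 had 1.25 and 0.945 with linker A and 1.19 and 1.01 with linker B. Both differences were picked out after 18 pairs of values were seen.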
